A study of Arabidopsis thaliana with 9 samples.

Results

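The genes described here are carried by the mitochondrial genome of Arabidopsis and encode subunits of the respiratory chain or of the machinery that makes c-type cytochromes. They were taken by name: every probe set that the platform annotation paired with a single gene called nad or cox with a number, ccb, ccm or cob was a member. This gave 21 of 22746 probe sets tested, or 21 of the 13513 that carried 1 gene, and they belonged to 14 of 13350 genes. NADH dehydrogenase had 15 probe sets of 8 genes (nad1, nad2, nad4, nad4L, nad5, nad6, nad7 and nad9), cytochrome oxidase had 2 (cox1 and cox2), and cytochrome c maturation had 4 (ccb203, ccb206, ccb382 and ccb452). All 21 matched genes of the mitochondrial chromosome in RefSeq (TAIR10.1). RefSeq also lists ccmC, cob, cox3 and nad3 there, and none of these had a probe set of its own in the annotation used.

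Transcripts of whole seedlings were measured on 9 ATH1 arrays, which give a normalized log2 signal for each probe set. The groups were gun4-1 without any agent, Col-0 grown with 10 µM gabaculine (GAB), and untreated Col-0, with 3 arrays each. GAB inhibits glutamate-1-semialdehyde aminotransferase and so the formation of 5-aminolevulinic acid (ALA), the precursor of chlorophyll and haem. gun4-1 is a knock-down line in the Col-0 background, impaired in GUN4, a protein that binds porphyrins and activates Mg chelatase. All seedlings spent 3 days in darkness on MS medium and then 6 h in light. The study's statistical note describes its experiments in general as independently repeated, but neither the labels nor the array methods say whether the 3 arrays of a group came from separate cultures, so a p-value here measures the spread among these arrays.

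Plant mitochondria kept a small genome with part of the genes for the electron transport chain, while most subunits are made in the cytosol and imported. Complex I (NADH dehydrogenase) passes electrons to ubiquinone. Its nad1, nad2, nad4, nad4L, nad5 and nad6 proteins lie in the membrane arm that pumps protons, and nad7 and nad9 lie in the arm that reaches into the matrix. Complex IV (cytochrome oxidase) hands electrons to oxygen, and both of its subunits considered here carry haem or copper. The ccb genes encode parts of the pathway that moves and attaches haem to cytochrome c and its relatives: ccb206 is the membrane part of a transporter (ccmB), ccb382 and ccb203 together encode a split haem lyase subunit (ccmFN1 and ccmFN2), and ccb452 encodes another part of that lyase (ccmFC).

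Across the arrays of a group the signals correlated with r between 0.996 and 0.997. GUN4 had no named probe set in the annotation used, so the label gun4-1 was not checked through its own gene. Of 41 tissue markers 5 could be matched. Among them RCA, the Rubisco activase of green tissue, had a mean log2 signal of 14.3, PORB, which reduces protochlorophyllide in etiolated and greening tissue, had 11.0, and the root hair expansins EXPA7 and EXPA18 had 5.67 and 5.38. The fifth was HYH, a transcription factor that promotes photomorphogenesis, with 8.87. Some of these markers differed between the groups. PORB was called lower in GAB than in Col-0 (log2 fold change −0.90, adjusted p 0.0108) and had −0.39 in gun4-1 (adjusted p 0.374). HYH was called higher in gun4-1 than in Col-0 (log2 fold change 0.61, adjusted p 0.0168) and had 0.53 in GAB (adjusted p 0.134). EXPA7 was called higher in gun4-1 than in GAB (log2 fold change 0.85, adjusted p 0.0149), while against Col-0 it had 0.56 in gun4-1 and −0.29 in GAB, without a call. RCA and EXPA18 were not called in any comparison. The part of these marker differences in the values of the members was not tested. No marker of epidermis, vascular tissue, seed storage or pollen was among the named probe sets.

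A probe set was called changed in limma if its p-value, adjusted after Benjamini and Yekutieli, did not exceed 0.05 and if the fold change was above 1.5 or below 0.667, which is 0.58 or −0.58 on the log2 scale. With these limits 0.769% of all probe sets were higher and 0.69% were lower in GAB than in Col-0. In gun4-1 2.44% were higher and 4.46% lower than in Col-0. Between the groups 1.32% were higher and 2.48% lower in gun4-1 than in GAB. At an unadjusted limma p under 0.05, without the fold limit, 19.7% of all probe sets passed in GAB against Col-0 (8.82% higher and 10.9% lower) and 35.3% in gun4-1 against Col-0 (17.6% higher and 17.7% lower). Both comparisons with Col-0 use the same 3 Col-0 arrays, so their values are given side by side and not as independent evidence.

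Few members passed. The cytochrome oxidase gene cox2 was higher in GAB and in gun4-1 than in Col-0, and nad9 was higher in gun4-1 than in Col-0. No member was called lower than in Col-0. At an unadjusted limma p under 0.05 4 of 21 members were higher and 0 lower in GAB, against 8.82% and 10.9% of all probe sets. By the same limit 13 of 21 were higher and 1, ccb382, was lower in gun4-1, against 17.6% and 17.7%. Of the 13, 4 were probe sets of nad1, and both nad5 probe sets were among them. Between the groups nad5 was higher and ccb382 lower in gun4-1 than in GAB, against 1.32% and 2.48% of all probe sets. Hence 1 of 21 members was called in GAB against Col-0, where 0.769% of all probe sets were higher and 0.69% lower. In gun4-1 against Col-0 2 of 21 were called, where 2.44% were higher and 4.46% lower. These counts are too small to be compared with the shares. In whole seedlings more mitochondria, more copies of their genome and more transcript per copy cannot be told apart.

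**Figure D1:**
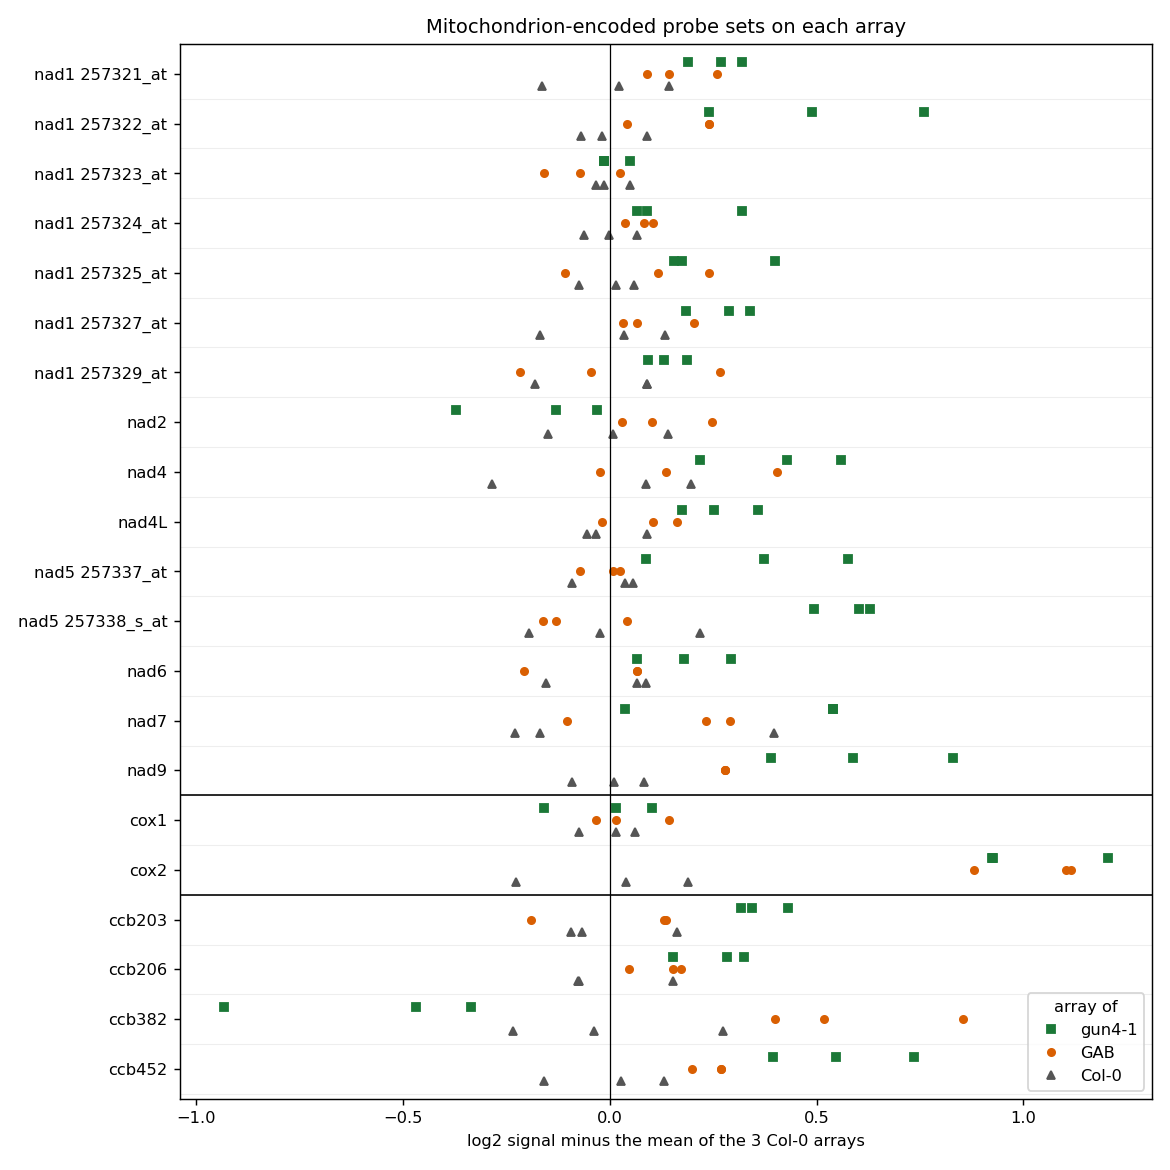
Log2 signal of each of the 21 probe sets on each array, given as the difference from the mean of the 3 Col-0 arrays of that probe set. gun4-1 (squares), GAB (circles) and Col-0 (triangles) have 3 arrays each, and black lines separate NADH dehydrogenase, cytochrome oxidase and cytochrome c maturation. For cox2 all GAB and gun4-1 arrays stand apart from Col-0, while ccb382 has its gun4-1 arrays to the left and its GAB arrays to the right of Col-0.

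Cytochrome oxidase subunit II, the product of cox2, takes the electrons from cytochrome c at its copper centre. Its log2 signals were 5.67, 5.67 and 5.95 in gun4-1, 5.85, 5.62 and 5.86 in GAB, and 4.93, 4.78 and 4.52 in Col-0. Every GAB and gun4-1 array was above every Col-0 array, and the GAB and gun4-1 arrays overlapped. cox2 was 2.05-fold higher in GAB than in Col-0 (log2 fold change 1.03, SE 0.12, 95% interval 0.77 to 1.29, adjusted p 0.0041). It was 2.03-fold higher in gun4-1 than in Col-0 (log2 fold change 1.02, SE 0.12, 95% interval 0.76 to 1.28, adjusted p 0.000878). The log2 fold change of gun4-1 against GAB was −0.01, with a 95% interval of −0.27 to 0.25. Both calls against Col-0 rest on the 1 probe set of cox2 and were kept when any single array was left out.

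The other cytochrome oxidase gene did not move with cox2. cox1 encodes the catalytic subunit I, which holds the haem groups at which oxygen is reduced. Its log2 signals were 6.35, 6.26 and 6.09 in gun4-1, 6.39, 6.26 and 6.21 in GAB, and 6.26, 6.31 and 6.17 in Col-0, so the groups overlapped throughout. Against Col-0 cox1 had a log2 fold change of 0.04 in GAB (95% interval −0.15 to 0.23) and −0.01 in gun4-1 (95% interval −0.21 to 0.18). Both intervals end below the log2 limit of 0.58.

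**Figure D2:**
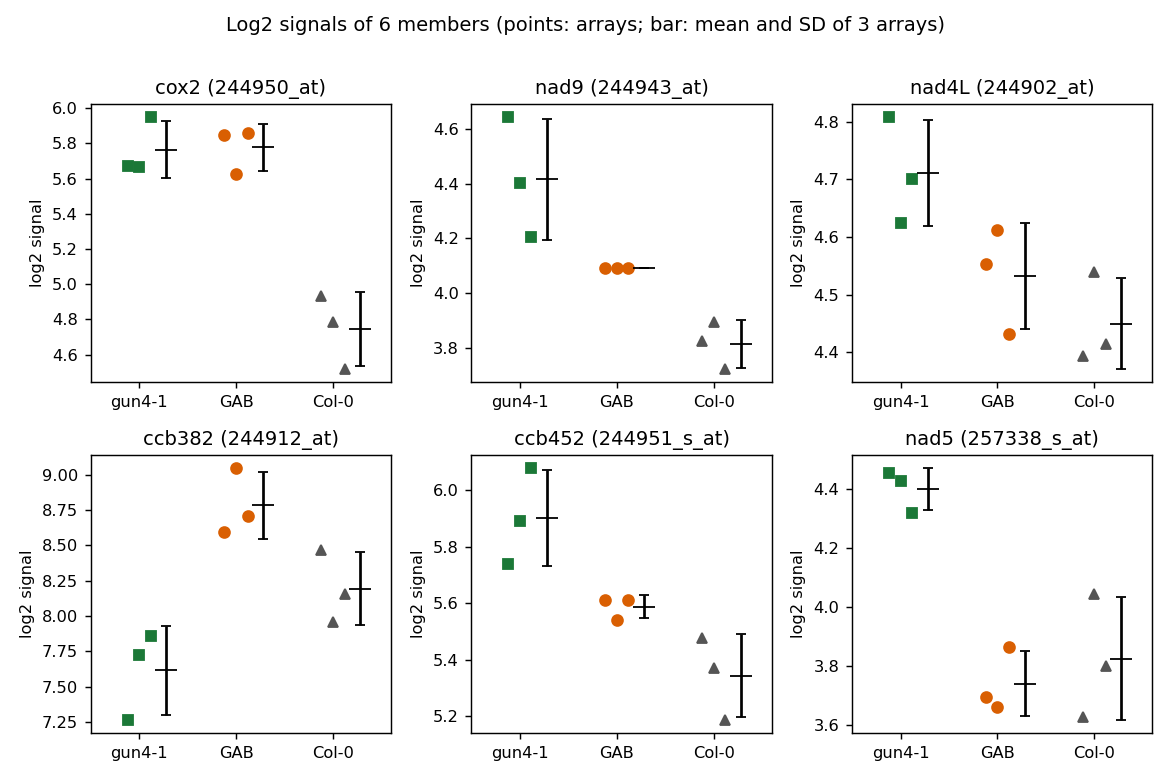
Log2 signals of 6 members on single arrays of gun4-1, GAB and Col-0, with the mean and SD of the 3 arrays of each group beside the points. The vertical axes differ between panels and do not start at 0. The Col-0 arrays of cox2 lie below the others, the 3 GAB arrays of nad9 are at 4.09, and the ccb382 arrays are lowest in gun4-1 and highest in GAB without overlap.

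Among the NADH dehydrogenase genes nad9, a subunit of the matrix arm, was the only one called against Col-0. The arrays gave log2 signals of 4.64, 4.40 and 4.20 in gun4-1 and 3.82, 3.89 and 3.72 in Col-0. All gun4-1 arrays were above all Col-0 arrays, and the difference was 1.52-fold (log2 fold change 0.60, SE 0.10, 95% interval 0.38 to 0.83, adjusted p 0.0132). In GAB the log2 signal of nad9 was 4.09 on each of the 3 arrays, equal to the last deposited digit, so its SD of 0 carries no information on the spread. In GAB the log2 fold change of nad9 was 0.28 (95% interval 0.05 to 0.50, adjusted p 1). The gun4-1 call lay just past the fold limit and depended on single arrays: without Col-0 replicate 1 the adjusted p was 0.0543, without Col-0 replicate 3 it was 0.0818, and without gun4-1 replicate 1 the log2 fold change was 0.49. It was also lost under quantile normalization (log2 fold change 0.54, adjusted p 0.0548) and with only the 2 groups compared in limma (adjusted p 0.0614).

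The remaining gene of the matrix arm, nad7, was not called. nad7 had log2 signals of 4.81, 4.30 and 4.81 in gun4-1, 4.56, 4.16 and 4.50 in GAB, and 4.66, 4.10 and 4.04 in Col-0. The spread within groups was wide and the groups overlapped, with a log2 fold change of 0.14 (95% interval −0.25 to 0.53) in GAB and 0.37 (95% interval −0.02 to 0.76) in gun4-1.

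In the membrane arm nad5 had 2 probe sets, of which 257338_s_at carries a suffix that marks a match to several transcripts. That probe set gave log2 signals of 4.46, 4.43 and 4.32 in gun4-1, 3.69, 3.66 and 3.87 in GAB, and 3.63, 4.04 and 3.80 in Col-0. The gun4-1 arrays were above all others, and the GAB and Col-0 arrays overlapped. nad5 was called higher in gun4-1 than in GAB (log2 fold change 0.66, SE 0.11, 95% interval 0.43 to 0.89, adjusted p 0.0153). Against Col-0 its fold change of 1.49 in gun4-1 stayed under the fold limit (log2 fold change 0.58, adjusted p 0.021), and in GAB its log2 fold change was −0.08 (95% interval −0.32 to 0.15). The call against GAB was lost without GAB replicate 1 (adjusted p 0.0782), GAB replicate 2 (0.0994), gun4-1 replicate 1 (0.082) or gun4-1 replicate 2 (0.0609).

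The second nad5 probe set, 257337_at, gave lower log2 fold changes. Here the log2 signals were 3.96, 3.67 and 4.16 in gun4-1, 3.61, 3.59 and 3.51 in GAB, and 3.64, 3.49 and 3.62 in Col-0. Again all gun4-1 arrays were above the GAB and Col-0 arrays, but the log2 fold change was 0.35 against Col-0 (adjusted p 0.434) and 0.36 against GAB (adjusted p 0.523). Over the 9 arrays the correlation between both nad5 probe sets was r = 0.63.

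nad4L encodes one of the small membrane subunits. Its log2 signals were 4.81, 4.62 and 4.70 in gun4-1, 4.55, 4.61 and 4.43 in GAB, and 4.39, 4.54 and 4.42 in Col-0. The gun4-1 arrays were above those of Col-0 and GAB, and the GAB and Col-0 arrays overlapped. nad4L had a log2 fold change of 0.08 in GAB (95% interval −0.10 to 0.27) and 0.26 in gun4-1 (95% interval 0.08 to 0.44, adjusted p 0.445), and neither was called.

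nad4 also encodes a membrane subunit, and its signal was the brightest of the NADH dehydrogenase probe sets. The log2 signals of nad4 were 7.11, 6.77 and 6.98 in gun4-1, 6.96, 6.53 and 6.69 in GAB, and 6.75, 6.64 and 6.27 in Col-0. The gun4-1 arrays were above Col-0, with a log2 fold change of 0.40 (95% interval 0.09 to 0.71, adjusted p 0.649), and the GAB arrays overlapped with Col-0 (log2 fold change 0.17). For nad6 the groups overlapped, with a log2 fold change of −0.03 in GAB and 0.18 in gun4-1.

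nad2 was the NADH dehydrogenase gene with a negative log2 fold change in gun4-1. For nad2 the log2 signals were 4.28, 4.37 and 4.03 in gun4-1, 4.44, 4.51 and 4.65 in GAB, and 4.55, 4.41 and 4.26 in Col-0. All gun4-1 arrays were below all GAB arrays, and Col-0 overlapped with both. Against Col-0 this gave a log2 fold change of −0.18 in gun4-1 (95% interval −0.41 to 0.06) and 0.13 in GAB (95% interval −0.11 to 0.36). Between gun4-1 and GAB it was −0.30 (95% interval −0.54 to −0.07, adjusted p 0.889).

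nad1 encodes the membrane subunit next to the matrix arm, and its mRNA is joined from separate precursor transcripts, as are those of nad2 and nad5. It had 7 probe sets, which target 1 gene and are therefore not replicates. None of the 7 was called in any comparison by limma, and at an unadjusted p under 0.05 there were 0 in GAB and 4, all higher, in gun4-1 against Col-0, where 17.6% of all probe sets were higher by this limit. In gun4-1 all 7 had a positive log2 fold change against Col-0, between 0.01 (257323_at) and 0.50 (257322_at), with a median of 0.24. For 5 of the 7 every gun4-1 array was above every Col-0 array, which held for 18% of all probe sets. In GAB 6 of 7 were positive, between −0.07 and 0.17, and all 7 overlapped with Col-0. Of all probe sets 11.1% had their GAB arrays all above Col-0 and 12.9% all below. Over the 9 arrays the 21 pairs of nad1 probe sets correlated with r between −0.11 and 0.75 (median 0.39).

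The nad1 probe set with the highest log2 fold change, 257322_at, had log2 signals of 4.51, 3.99 and 4.24 in gun4-1, 3.99, 3.99 and 3.79 in GAB, and 3.68, 3.84 and 3.73 in Col-0. The lowest gun4-1 array matched the upper GAB arrays. Its log2 fold change of 0.50 in gun4-1 had a 95% interval of 0.24 to 0.76 and an adjusted p of 0.108. The probe set 257323_at was the dimmest member, and its signals lay between 2.87 and 3.08 on all 9 arrays.

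**Figure D3:**
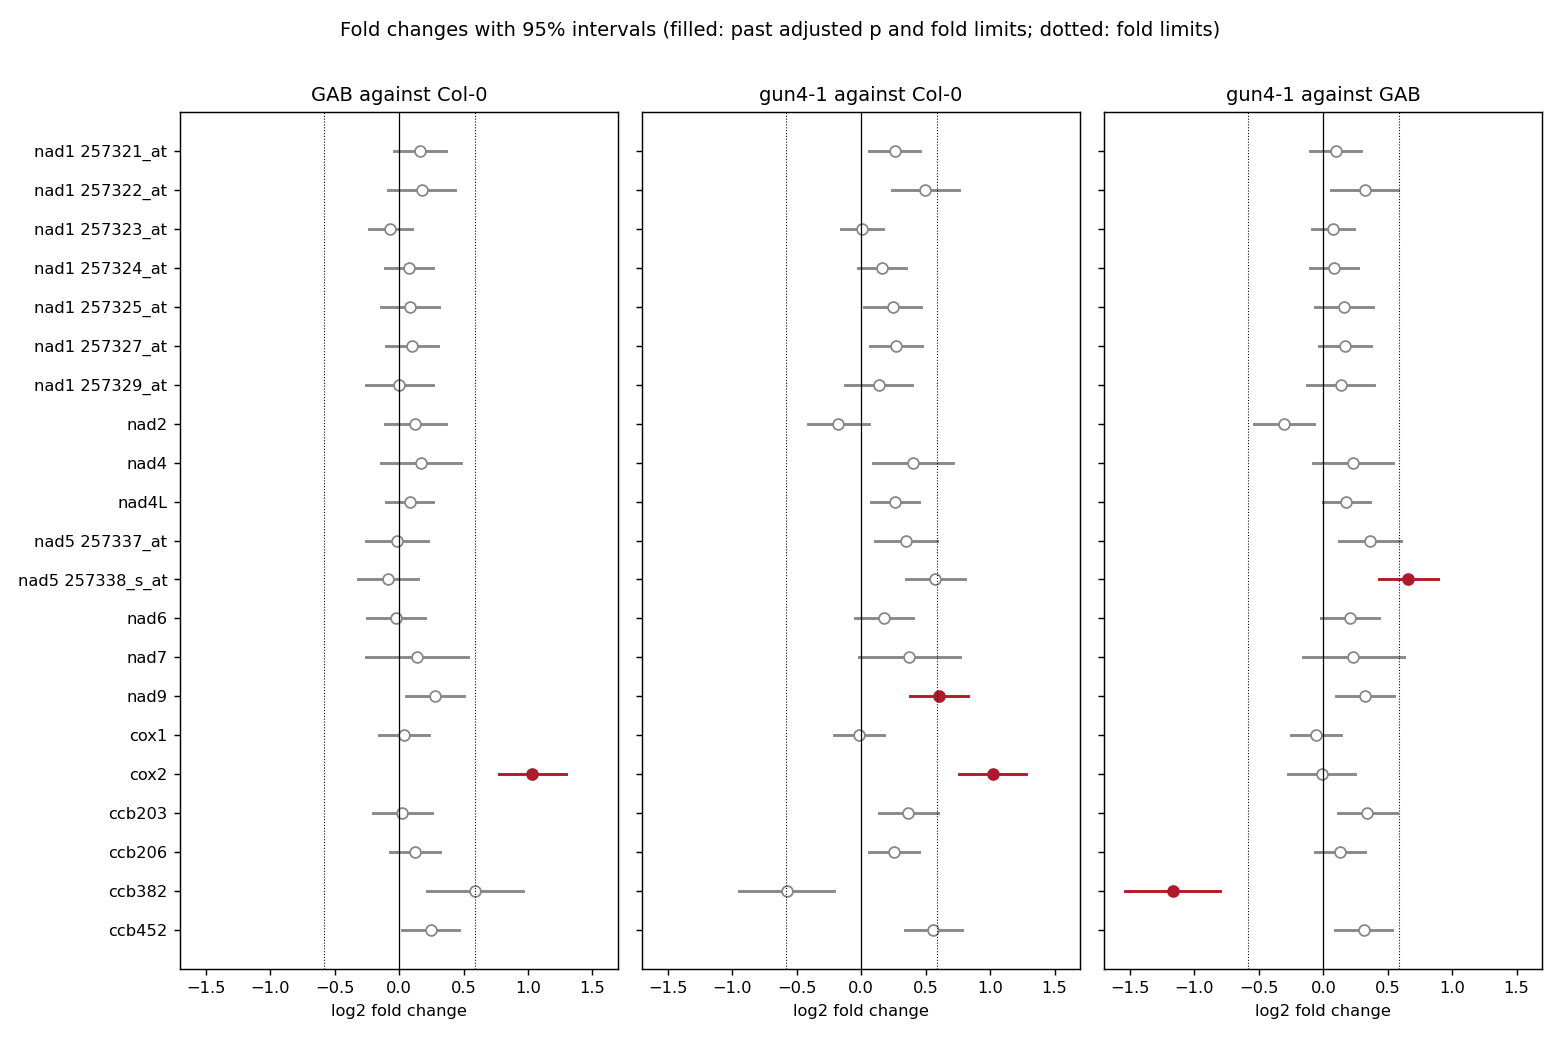
Log2 fold change of each of the 21 probe sets with its 95% interval, for GAB against Col-0, gun4-1 against Col-0 and gun4-1 against GAB. Filled red points passed the adjusted p and the fold limits (dotted lines), namely cox2 in both comparisons with Col-0, nad9 in gun4-1 against Col-0, and nad5 (257338_s_at) and ccb382 in gun4-1 against GAB.

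The cytochrome c maturation genes held the member with opposite positions in both groups. ccb382 (ccmFN1) had log2 signals of 7.26, 7.73 and 7.86 in gun4-1, 8.59, 9.05 and 8.71 in GAB, and 8.47, 7.96 and 8.16 in Col-0. All GAB arrays were above and all gun4-1 arrays below the Col-0 arrays. Neither difference from Col-0 was called: the log2 fold change was 0.59 in GAB (SE 0.17, 95% interval 0.22 to 0.96, adjusted p 0.644) and −0.58 in gun4-1 (SE 0.17, 95% interval −0.95 to −0.21, adjusted p 0.3). The direct comparison was called, with a level in gun4-1 that was 0.444 times that in GAB (log2 fold change −1.17, SE 0.17, 95% interval −1.54 to −0.80, adjusted p 0.0078). ccb382 was the brightest of the 21 members, above 74.4% of all probe sets in mean signal.

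ccb203 (ccmFN2), the other part of the split subunit, did not follow ccb382. Its log2 signals were 4.67, 4.55 and 4.58 in gun4-1, 4.37, 4.37 and 4.05 in GAB, and 4.14, 4.17 and 4.40 in Col-0. The gun4-1 arrays were above those of GAB and Col-0. The log2 fold change was 0.02 in GAB (95% interval −0.20 to 0.25) and 0.36 in gun4-1 (95% interval 0.14 to 0.59, adjusted p 0.272).

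ccb452 (ccmFC) had log2 signals of 5.74, 5.89 and 6.08 in gun4-1, 5.61, 5.54 and 5.61 in GAB, and 5.47, 5.37 and 5.18 in Col-0. The groups did not overlap, with gun4-1 highest and Col-0 lowest. In gun4-1 the adjusted p was 0.0192, but the 1.47-fold difference (log2 fold change 0.56, SE 0.10) was under the fold limit, and in GAB the log2 fold change was 0.24 (95% interval 0.02 to 0.47, adjusted p 1). The probe set of ccb452 also carries the suffix for several transcripts. With each array centred on its median ccb452 and nad5 (257338_s_at) passed the fold limit in gun4-1, at log2 fold changes of 0.66 and 0.67.

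ccb206 (ccmB) lies directly after cox2 in the order of named protein-coding genes of the mitochondrial chromosome. ccb206 gave log2 signals of 4.14, 4.27 and 4.31 in gun4-1, 4.04, 4.14 and 4.16 in GAB, and 4.14, 3.91 and 3.92 in Col-0. The GAB arrays overlapped with Col-0, and the lowest gun4-1 array was barely above the highest of Col-0. The log2 fold change was 0.12 in GAB (95% interval −0.07 to 0.32) and 0.25 in gun4-1 (95% interval 0.06 to 0.45, adjusted p 0.615), and both intervals lay below those of cox2.

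Most other members had small positive log2 fold changes in gun4-1. The median over the 21 members was 0.26 in gun4-1 and 0.10 in GAB against Col-0, while the medians over all probe sets were 0.02 and 0.00. The log2 fold change was positive for 18 of 21 members in gun4-1, the exceptions being nad2, cox1 and ccb382, and for 17 of 21 in GAB, where it was negative for nad6, both nad5 probe sets and 257323_at of nad1. Over all 22746 probe sets 12536 were positive in gun4-1 and 11374 in GAB. On single arrays the median distance of the members from their Col-0 mean was 0.34, 0.19 and 0.32 in gun4-1, 0.10, 0.13 and 0.10 in GAB, and 0.06, 0.04 and −0.07 in Col-0. The members are not independent of each other, and no test over them was made.

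Separation of the arrays showed the same order. For 14 of 21 members all gun4-1 arrays were above all Col-0 arrays, against 18% of all probe sets, and for 1 (ccb382) they were all below, where the background was also 18%. In GAB all arrays were above Col-0 for 4 members (cox2, nad9, ccb382 and ccb452), with a background of 11.1%, and for none were they all below (background 12.9%). In gun4-1 the 14 comprised 10 of 15 NADH dehydrogenase probe sets, 1 of 2 of cytochrome oxidase and 3 of 4 of cytochrome c maturation. Of the 10, 5 were probe sets of nad1, and both nad5 probe sets were among them, so these are not counts of separate genes. The median log2 fold change in gun4-1 was 0.26 for NADH dehydrogenase and 0.31 for cytochrome c maturation. In GAB these medians were 0.08 and 0.18.

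The signals of most members were dim. In mean log2 signal 19 of 21 were under the median of all probe sets, and 9 were in the lowest of 4 equal bins of probe sets ordered by mean signal, which ended at 4.17. In that bin the probe sets of the whole array had a median log2 fold change of 0.07 in gun4-1 against Col-0, 73.4% of them were positive, and for 14.1% all gun4-1 arrays were above Col-0. The 9 members in it had a median of 0.27. In GAB the same bin had a median of 0.01 with 53.1% positive, and its 9 members had 0.00. The first quartile of the signals was between 4.15 and 4.27 on the gun4-1 arrays, between 4.12 and 4.17 on the GAB arrays, and 4.14 on the Col-0 arrays. After cyclic loess normalization, which evens such shifts between arrays, the median of the members in gun4-1 was 0.23, and nad9 was no longer called (log2 fold change 0.56).

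**Figure D4:**
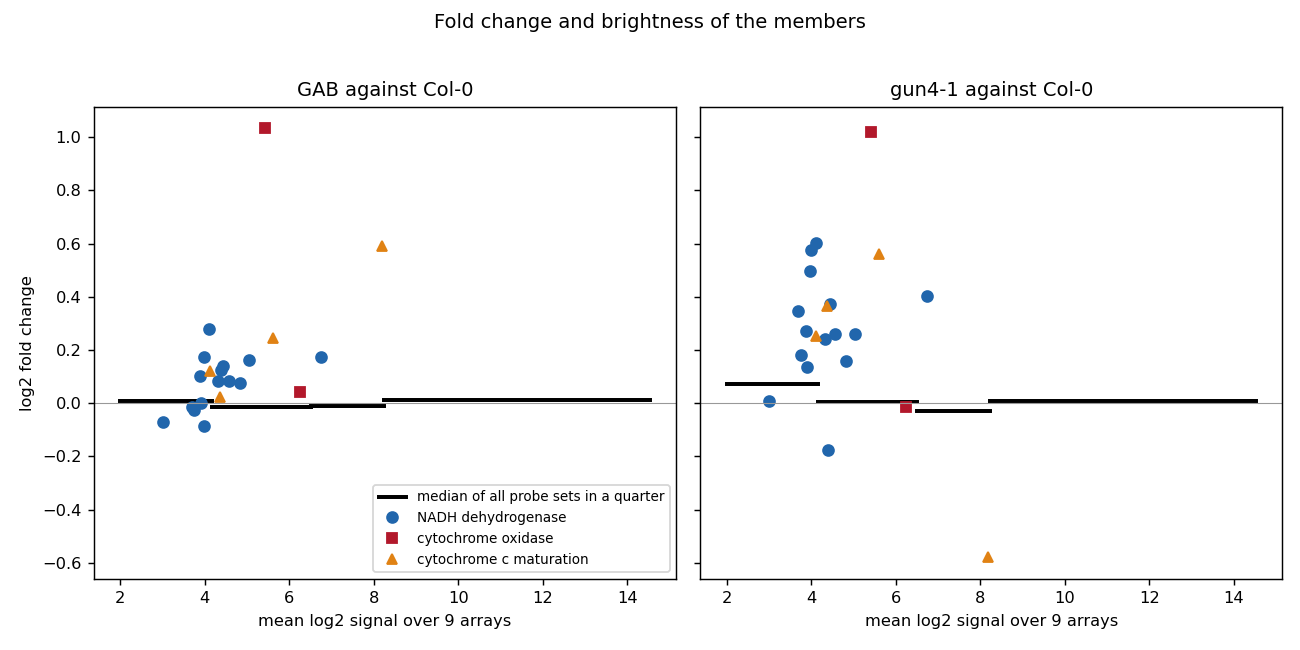
Log2 fold change of the 21 members (vertical axis) against their mean log2 signal over the 9 arrays (horizontal axis), for GAB and for gun4-1 against Col-0. Black bars give the median log2 fold change of all probe sets in each of the 4 bins of mean signal, which is 0.07 in the lowest bin of gun4-1, and symbols give the class of the members.

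Other RNA that is normally little tailed was also measured on the arrays. The control probe set for cytosolic 25S ribosomal RNA had log2 signals of 11.9, 11.7 and 11.8 in gun4-1, 11.0, 10.8 and 10.6 in GAB, and 11.0, 10.9 and 10.6 in Col-0. It was thus 0.97 higher in gun4-1 than in Col-0 with no overlap, and −0.03 in GAB. The control probe set for 5S ribosomal RNA did not show this difference. Its signal was dim, with means of 3.19 in gun4-1, 3.06 in GAB and 3.19 in Col-0, and both groups overlapped with Col-0. The differences between the 3′ and 5′ probe sets of actin, GAPDH and ubiquitin overlapped with Col-0 in both groups. The part of the ribosomal signal and of the shift of dim probe sets in the values of the members was not tested.

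In the annotation 4 probe sets were paired with a mitochondrial gene and with a locus of chromosome 2, which carries a large copy of the mitochondrial genome. They are no members, but they gave the available values for cob (cytochrome b of complex III) and cox3 (subunit III of complex IV). The probe set shared by cob and AT2G07727 had log2 signals of 5.21, 5.06 and 5.05 in gun4-1, 5.05, 4.88 and 4.90 in GAB, and 4.98, 4.90 and 4.60 in Col-0. Its log2 fold change was 0.28 in gun4-1 (adjusted p 0.79), with all arrays above Col-0, and 0.12 in GAB. The probe set shared by cox3 and AT2G07687 had a log2 fold change of 0.23 in GAB (95% interval 0.03 to 0.43) and 0.23 in gun4-1 (95% interval 0.03 to 0.42), without a call. The probe sets that share nad1 with AT2G07701 and AT2G07702 gave 0.36 and 0.28 in gun4-1 and 0.16 and 0.22 in GAB as log2 fold changes.

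Outside the members 2 more genes of the mitochondrial genome had a probe set of their own. matR, a maturase for introns, had a log2 fold change of −0.09 in GAB and 0.06 in gun4-1, and orfX (mttB), a protein related to a translocase, had 0.06 in GAB and 0.41 in gun4-1 (95% interval 0.18 to 0.64, adjusted p 0.149). Neither was called. The 64 plastid-encoded probe sets had a median log2 fold change of 0.00 in GAB and 0.03 in gun4-1, and 1 of them, psbA of photosystem II, was called lower in gun4-1. The 10 plastid ndh genes, which encode relatives of the mitochondrial nad subunits, gave no call and medians of 0.08 in GAB and 0.04 in gun4-1, with 0 in GAB and 2 in gun4-1 at an unadjusted limma p under 0.05, smaller shares than the 19.7% in GAB and 35.3% in gun4-1 of all probe sets.

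Most nuclear genes listed for complexes I, III and IV did not show the positive values in gun4-1. Of 13 measured nuclear probe sets of complex I none was called in any comparison, and 3 of 13 were positive in gun4-1, with a median log2 fold change of −0.16. The corresponding medians were −0.18 for 13 probe sets of complex III and cytochrome c, 3 of them positive, and −0.14 for 10 of complex IV, 4 of them positive, again without a call. In GAB these medians were 0.00, 0.00 and −0.02. At an unadjusted p under 0.05 complex I had 5 lower and 0 higher probe sets in gun4-1, complex III and cytochrome c 6 lower and 1 higher, and complex IV 2 lower and 1 higher. Over all probe sets 17.7% were lower and 17.6% higher by this limit, so the counts of complex IV were near the background. The complex I subunit AT5G52840 had the lowest value of its list, −0.41, while AT2G02050 had −0.29 and AT3G03070 had −0.25. In complex III AT4G32470 had −0.34, AT3G10860 −0.32 and AT1G51980 −0.29 in gun4-1. AT5G61310 of complex IV was −0.50 in GAB (adjusted p 0.0316) and −0.40 in gun4-1 (adjusted p 0.035), both within the fold limit, while in gun4-1 AT1G53030 was 0.52 (adjusted p 0.293) and AT1G80230 −0.30 (adjusted p 0.306).

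**Figure D5:**
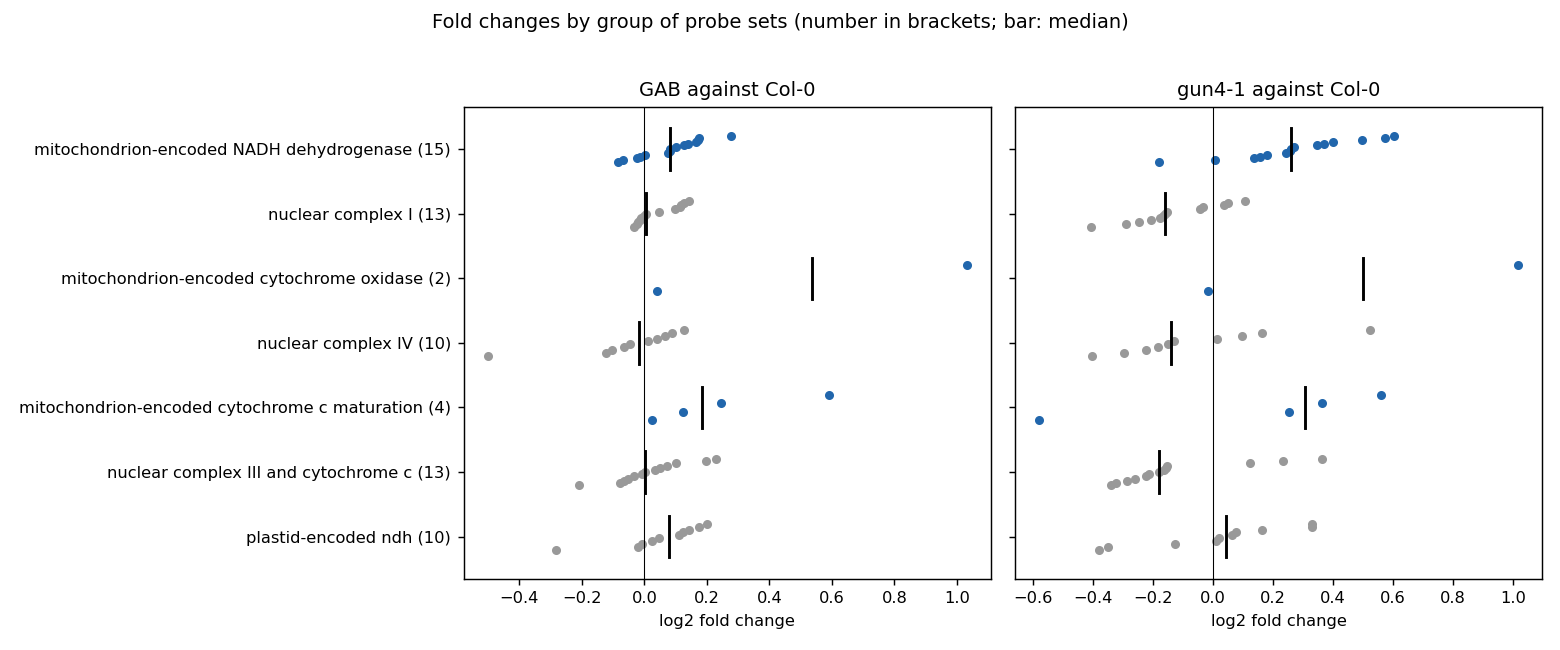
Log2 fold changes of single probe sets (points) and their median (bar) in GAB and gun4-1 against Col-0. Blue marks the mitochondrion-encoded classes, and grey marks the nuclear genes listed for complexes I, III and IV and the plastid ndh genes. In gun4-1 the median of NADH dehydrogenase is 0.26 and that of nuclear complex I is −0.16.

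CCMH, the nuclear gene measured for cytochrome c maturation, had a log2 fold change of 0.08 in GAB and 0.14 in gun4-1. Among 5 genes of alternative respiration 1 was called lower in gun4-1 than in Col-0, against 4.46% of all probe sets. This was NDB2, an NADH dehydrogenase that bypasses complex I without pumping protons. Its log2 signals were 5.46, 5.74 and 5.55 in gun4-1, 6.09, 6.33 and 6.12 in GAB, and 6.21, 6.42 and 6.11 in Col-0. The gun4-1 arrays were below all others (log2 fold change −0.66 against Col-0, SE 0.11, adjusted p 0.00905, and −0.60 against GAB, adjusted p 0.0327). NDB1, with −0.38, and NDC1, with 0.32, were not called in gun4-1. In GAB NDB1 had −0.24 and NDC1 0.33, also without a call. At an unadjusted limma p under 0.05 the list had 2 higher and 1 lower in GAB. By this limit it had 1 higher and 2 lower in gun4-1. None of the 7 measured genes listed for mitochondrial RNA metabolism was called, and their medians were −0.07 in GAB and −0.08 in gun4-1. The 7 include ATCES1, whose place in this class was not checked. At an unadjusted limma p under 0.05 there were 2 in gun4-1, AT5G04050 with a log2 fold change of 0.33 and AT5G14580 with −0.24, and 0 in GAB, where AT5G46920 had −0.19. Both counts were under the shares of all probe sets, 35.3% in gun4-1 and 19.7% in GAB.

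The genes listed for the mitochondrial stress response separated the groups in another way. Of 8 listed genes 4 were measured. The list was chosen with earlier results of these data known, so the shares of all probe sets below give scale and no support. In GAB 3 of 4 were called higher than in Col-0, against 0.769% of all probe sets. Their log2 fold changes were 1.79 for AT5G09570 (adjusted p 0.000277), 1.43 for AT5G51440 (adjusted p 0.00675) and 1.38 for AT2G21640 (adjusted p 0.000247). In gun4-1 none of these 3 was called against Col-0, with log2 fold changes of 0.21, 0.45 and 0.26. All 4 genes, NDB2 included, were called lower in gun4-1 than in GAB, against 2.48% of all probe sets, with a median log2 fold change of −1.05. The direct comparison uses the same GAB arrays, so for the other 3 genes it is not independent of their calls in GAB.

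By similarity over the 9 arrays, measured as Pearson's r among 13512 other probe sets with 1 gene, the members were mostly nearest to genes of the nucleus. Nearly all candidates were nuclear: besides the members, 64 were plastid-encoded and 2 were other mitochondrion-encoded probe sets. A nearest gene in the nucleus was therefore likely from the outset. The nearest to nad4L was the nad1 probe set 257322_at (r = 0.97), and this was the only pair of members among the 3 nearest of any member. cox2 was nearest to AT4G20830 and UGT76E2 (r = 0.97 each) and then to AT2G07751 (r = 0.97), a locus in the same part of chromosome 2 as the loci named above, whose log2 fold changes were 0.15 in GAB and 0.18 in gun4-1 without a call. nad9 was nearest to AT3G19200 (r = 0.97), AT3G62190 (r = 0.97) and AT1G28260 (r = 0.97), and ccb382 to AT1G51110 (r = 0.96), AT5G55570 (r = 0.95) and AT4G08690 (r = 0.94). For nad1 the nearest genes of the 7 probe sets were AT3G26590, AT2G13250, AT4G22510, LCB2, UBC32, AT1G35570 and AT1G50720. For nad2 and nad4 they were AT4G26060 and AT3G24070, for nad5 AT4G07450 and PDC2, for nad6 AT5G43740, and for nad7 AGL57. cox1 was nearest to AT4G28550, ccb203 to AT3G15110, ccb206 to AT1G29020 and ccb452 to AT4G04070. These nearest genes had r between 0.90 and 0.99. The arrays share groups of 3, so a gene that differs between groups in the same order gives a high r. Among the members themselves r ranged between −0.88 and 0.97 over 210 pairs, with a median of 0.40.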

How the data were processed

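The deposited log2 signals per probe set were calculated by the authors with robust multi-array average (RMA). Affymetrix Expression Console is named in the submitters' processing notes, and its version is not given in the sources used here. RNA of whole seedlings, 100 ng per array, was labelled with a 3′ IVT kit, which starts from poly(A) tails. Plant mitochondrial mRNAs carry few stable tails, so how much of these transcripts the signals cover is not known. The 64 control probe sets were left out of the tests.

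One limma 3.58.1 model (R 4.3.3) of the 3 groups gave log2 fold changes, 95% intervals and Benjamini-Yekutieli adjusted p-values over all 22746 probe sets. The authors' methods name limma and this adjustment, but describe pairwise comparisons with the wild type. The model was tested on simulated data. An exact permutation test of 3 arrays against 3 cannot give p below 0.1 and was not used. Genes were named from the platform annotation (8730 probe sets unnamed, 503 with several genes) and RefSeq. Every member is named. Of the nuclear lists those called and up to 3 with the smallest p are named, and ATCES1 besides. For each member the most similar gene is named, with the 3 most similar for cox2, nad9 and ccb382 (all were computed). The members and lists were chosen with earlier results of these data known. No array was identical to another. The depth of an array is not defined, and 3 arrays per group limit the precision. The alternatives included other normalizations, filters, adjustments and tests, and leaving out each array.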

Additional observations from a re-analysis of the deposited data

Results flagged for a closer look

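The following results were singled out because the direct comparison of gun4-1 with GAB differed. For nad5 (257338_s_at) the log2 fold change of gun4-1 against GAB was 0.66, with gun4-1 arrays above both other groups. For ccb382 it was −1.17, with GAB arrays above and gun4-1 arrays below Col-0. Control probe sets outside the comparisons also gave a signal in gun4-1 above that in Col-0. The 25S ribosomal RNA control was 0.97 higher on the log2 scale. The control probe set U12639, whose identity is not given in the sources used here, was 4.97 higher, with log2 signals of 8.54, 8.43 and 9.07 in gun4-1, 3.53, 3.49 and 3.28 in GAB, and 3.74, 3.86 and 3.53 in Col-0.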

How the results depend on the processing

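Among 12 alternatives and the omission of single arrays, no called fold change changed its direction. Without the fold limit 4 members were called in gun4-1 against Col-0, and 4 likewise after centring the arrays on their medians, where the median over the members was 0.36. Centring moved the share of higher among all calls to 52.8% in gun4-1 and 62.9% in GAB against Col-0, compared with 35.4% and 52.7% as deposited. In gun4-1 against Col-0 1 member was called without the lowest 25% of mean signals, with only the 2 groups compared, and after cyclic loess normalization, which was chosen after seeing the data. In gun4-1 against GAB 1 member was called without these dim probe sets or without the probe sets for several transcripts, both of which leave out nad5. An equal-variance test per probe set without moderation called 0 members in GAB, 0 in gun4-1 and 0 between them after the same adjustment, and 0, 1 and 0 after Benjamini-Hochberg; at an unadjusted p of 0.05 it called 2, 2 and 2. The moderated test with Benjamini-Hochberg adjustment kept the counts at 1, 2 and 2. Leaving out 1 array gave 1 call in GAB, 1 to 3 in gun4-1 and 1 to 2 between them, with medians over the members of 0.07 to 0.14, 0.24 to 0.33 and 0.15 to 0.19. Arrays of equal replicate number had deviations from their group means that correlated with r of −0.07 to 0.26, against −0.34 to 0.19 for other pairs of arrays from different groups. Not every equal-numbered pair exceeded 0.1, and the labels give no shared batch, so the numbers were not taken as pairs. With the replicate number as a block the counts stayed at 1, 2 and 2, and the adjusted p of cox2 was 0.00835 in GAB and 0.00192 in gun4-1. For cox2 the adjusted p when an array was left out was 0.00832 to 0.0315 in GAB and 0.00158 to 0.00707 in gun4-1. For ccb382 between gun4-1 and GAB it was 0.0146 to 0.0492. The cause of each lost call was not tested, except that nad9 and nad5 are left out of the set without dim probe sets.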

Other observations

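The copy of mitochondrial DNA on chromosome 2 was looked at through all 36 probe sets with 1 gene whose locus begins with AT2G076 or AT2G077, a choice made after values were seen, and 19 of them carry the suffix for several transcripts. None was called by limma. At an unadjusted limma p under 0.05 there were 10 in gun4-1 against Col-0, all higher, where 17.6% of all probe sets were higher by this limit. In GAB there were 0, against 19.7% of all probe sets in either direction. AT2G07724 had a log2 fold change of 0.57 in gun4-1 (adjusted p 0.0119) and AT2G07722 had 0.38 (adjusted p 0.0454), both under the fold limit. In gun4-1 28 of 36 had a positive log2 fold change against Col-0, with a median of 0.12 and a range of −0.08 to 0.57, and for 7 all arrays were above Col-0, near the 18% of all probe sets. In GAB 23 of 36 were positive, with a median of 0.03, and for 3 all arrays were above Col-0, against 11.1% of all probe sets. psbA, which encodes the D1 protein of photosystem II in the plastid, had log2 signals of 6.87, 6.76 and 6.63 in gun4-1, 8.98, 8.94 and 8.94 in GAB, and 9.51, 9.19 and 9.25 in Col-0, a log2 fold change of −2.56 in gun4-1 and −0.36 in GAB.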
